A study of Mus musculus with 6 samples.

Results

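The genes described here encode the enzymes of glycolysis, measured in sorted mammary tumor cells: Hk1 and Hk2 (hexokinase), Gpi1 (glucose-6-phosphate isomerase), Pfkl, Pfkp and Pfkm (phosphofructokinase), Aldoa and Aldoc (aldolase), Tpi1 (triosephosphate isomerase) and Pkm (pyruvate kinase). They were taken from a named list, chosen with earlier results of these data known, and make up 10 of the 47643 gene rows of the count tables. At 3 steps the list holds more than 1 paralog. Each of those was also read as its share of the summed counts of the listed genes of its step. The study asked how mouse breast tumors that turn more hypoxic under antiangiogenic treatment resist it. RNA came from CD45-EPCAM+ cells, also gated as CD31- and PDGFRα- per the study's methods, which were isolated by sorting. They came from 6 breast tumors of the MMTV-PyMT strain (FVB/N background). In this model a mammary tumor virus promoter drives the polyoma middle T oncogene in the mammary epithelium. Mice received the anti-VEGFA antibody B20-4.1.1 at 5 mg/kg intraperitoneally, 2 times per week for 6 weeks, from 7 weeks of age. All 6 tumors belong to this 1 treated group, no vehicle-treated tumors were analysed here, and the hypoxia class of each tumor is not given in the sources used here, so the comparisons are between genes within a tumor and between single tumors. The labels do not state in words that each tumor came from its own mouse, and p-values measure the spread between these 6 samples.

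Glycolysis turns glucose into pyruvate in the cytosol. Hexokinase traps glucose as glucose-6-phosphate, phosphofructokinase makes the committed step to fructose-1,6-bisphosphate, aldolase splits that sugar into a pair of triose phosphates, and pyruvate kinase makes the last ATP-yielding step. The paralogs of a step catalyse the same reaction and differ in regulation and in the tissues that use them. Hk1 is the broadly expressed hexokinase, while Hk2 is typical of insulin-sensitive tissue and of many tumors and is a known target of the hypoxia-inducible factors (HIF). Pfkl, Pfkm and Pfkp are known as the liver, muscle and platelet forms, Aldoa as the muscle and ubiquitous aldolase and Aldoc as the brain form.

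HIF binds DNA at a short core, and the promoters of the hexokinase and aldolase pairs are shown because hexokinase was the pair whose ratio differed most between tumors and aldolase a pair whose ratio differed little. Each line runs 5′ to 3′ on the strand of the gene, from 250 bases before to 50 bases after an annotated start (RefSeq, GRCm38.p6), and capitals mark ACGTG, the motif searched, or CACGT, the same motif on the other strand.
Hk1 (second annotated start, chr10:62340372-62340671, minus strand): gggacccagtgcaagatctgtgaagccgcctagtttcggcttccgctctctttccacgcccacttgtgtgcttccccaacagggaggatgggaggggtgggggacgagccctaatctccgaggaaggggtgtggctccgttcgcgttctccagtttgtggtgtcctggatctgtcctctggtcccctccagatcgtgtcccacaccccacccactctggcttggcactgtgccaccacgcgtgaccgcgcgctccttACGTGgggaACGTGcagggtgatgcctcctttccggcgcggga
Hk2 (chr6:82774405-82774704, minus strand): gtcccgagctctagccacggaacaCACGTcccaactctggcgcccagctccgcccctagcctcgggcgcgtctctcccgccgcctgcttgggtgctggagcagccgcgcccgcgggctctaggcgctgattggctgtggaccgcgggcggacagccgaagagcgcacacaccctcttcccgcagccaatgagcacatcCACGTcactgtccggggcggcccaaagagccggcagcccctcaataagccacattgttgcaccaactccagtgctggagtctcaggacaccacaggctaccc
Aldoa (second annotated start, chr7:126799205-126799504, minus strand): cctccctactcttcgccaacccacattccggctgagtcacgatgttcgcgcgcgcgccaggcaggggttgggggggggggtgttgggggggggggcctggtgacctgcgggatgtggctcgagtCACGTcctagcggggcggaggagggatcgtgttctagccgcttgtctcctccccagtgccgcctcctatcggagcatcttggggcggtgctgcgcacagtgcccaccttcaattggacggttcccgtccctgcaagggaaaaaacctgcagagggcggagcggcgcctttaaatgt
Aldoc (first annotated start, chr11:78322823-78323122, plus strand): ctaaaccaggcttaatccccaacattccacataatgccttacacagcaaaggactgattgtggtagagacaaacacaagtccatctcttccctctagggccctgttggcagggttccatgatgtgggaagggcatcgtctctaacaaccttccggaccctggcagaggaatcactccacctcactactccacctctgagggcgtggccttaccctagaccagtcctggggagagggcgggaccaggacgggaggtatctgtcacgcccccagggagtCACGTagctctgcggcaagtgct
These windows were chosen because they hold the motif: both hexokinase windows shown held 2 matches and both aldolase windows shown held 1, while the windows of the first Hk1 start, the first Aldoa start and the second Aldoc start held 0. Over all members, 8 of 18 promoter windows (44.4%) held a match, against 19.6% of all 32851 promoters of the same length. Of the 10 genes, 6 had at least 1 such window, against 21.8% of all 27025 genes in the table. The 10 genes had more windows per gene than the table as a whole, so the shares by gene are not like for like. The window of a further Aldoa start overlaps the one shown and shares its match, which is counted in both. No window of Gpi1, Pfkl, Pfkp or Tpi1 held the motif searched. Other forms of the HIF core were not searched or marked, so a window without a match may still hold such a form. A match is a description of these letters and was not tested as a binding site, and reads from the 3′ end of transcripts do not show which start was used.

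Libraries held 2509482 to 5893246 counts on genes, and 16.1 to 41.4% of reads were assigned to no single gene. Markers of the sorted cells were present, and 7 luminal epithelial markers (Epcam and keratins among them) summed to 3957 to 4874 CPM (counts scaled to the total of the library), with 5 endothelial markers at 1.59 to 4.12 CPM and 6 fibroblast markers at 15.1 to 25.9 CPM. Basal markers (6 genes) summed to 131 to 502 CPM. Immune markers (13 genes) summed to 104 to 297 CPM, with S100a8 alone at 73.8 to 230 CPM and 2 of the 13 at 0 in every tumor. The sum was highest in tumor 3, where S100a8 was at 74.7 CPM, so other immune markers made up most of it there. In tumor 3, 5 erythroid genes reached 864 CPM, against a median of 32.9 CPM, and 7 muscle genes 12.6 CPM. The library of tumor 1 stood apart: its median correlation with the others was 0.788, against 0.905 to 0.939 for the other 5, and its levels moved with GC content. Each result that rests on tumor 1 is therefore given with and without it. In sorted bulk RNA, fewer cells using a gene and less RNA of it per cell cannot be told apart.

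The 10 genes together made up 2263 to 6236 CPM. Aldoa reached 1988, 633.6, 1068, 1063, 934.6 and 1002 CPM in tumors 1 to 6, and Aldoc 1327, 406.9, 563.8, 571.1, 615.6 and 584.3 CPM in the same order. Pkm, which makes pyruvate, stood at 1189, 376, 406, 513, 431 and 426 CPM. For all 3 genes tumor 1 was highest and tumor 2 lowest, and tumors 3 to 6 lay close together. CPM takes no account of length, so the order of the genes is given by TPM and then by CPM. TPM divides counts by the union length of the exons before scaling. The TPM medians ran Aldoa 887, Aldoc 451, Pkm 213, Tpi1 130.2, Gpi1 83.2, Hk1 62.7, Pfkl 46.9, Hk2 30.3, Pfkp 19.1 and Pfkm 12.5 TPM. Every pair of neighbours in this order overlapped in its ranges over tumors except Pkm, at 198 to 609 TPM, and Tpi1, at 86.2 to 184 TPM. Libraries that read only the 3′ end depend little on transcript length, so the TPM scale lowers long genes such as Pfkp. By CPM the medians of Hk1 (209.2) and Gpi1 (208.5) lay above that of Tpi1 (141), and Pfkp (101) lay above Hk2 (71.9). The order of these genes thus depended on the scale.

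**Figure D1:**
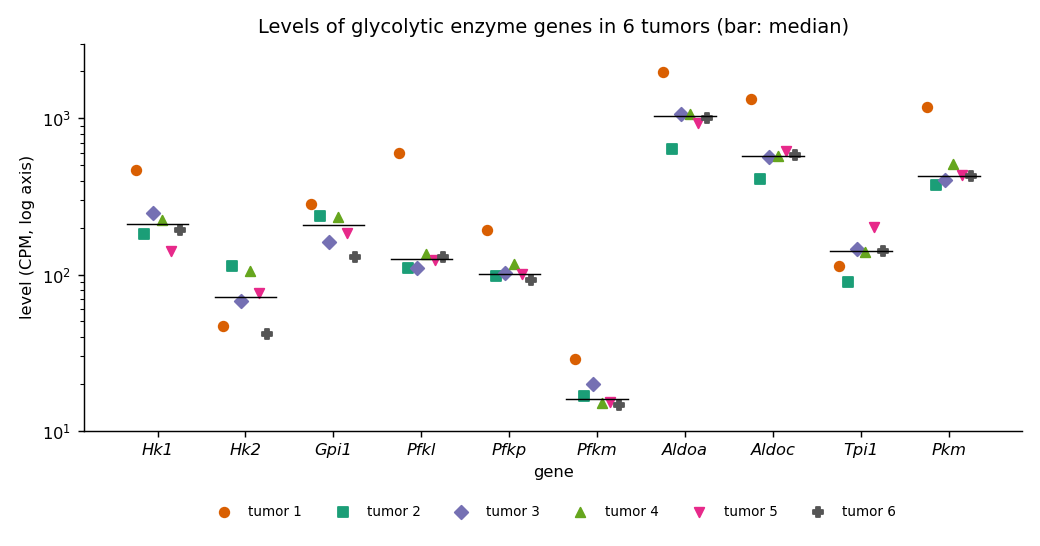
Level of each gene in CPM (log axis) in tumors 1 to 6, 1 point per tumor, with a black bar at the median. Tumor 1 was highest for 8 of the 10 genes, with Pfkl at 599.5 CPM against 110.4 to 136 CPM in tumors 2 to 6, while Hk2 and Tpi1 were highest in tumors 2 and 5.

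Hexokinase was the step whose paralog mix varied most. Counts of Hk1 were 2745, 456, 1016, 1056, 710 and 993 in tumors 1 to 6, and those of Hk2 were 274, 285, 280, 496, 380 and 213. As levels, Hk1 stood at 465.8, 181.7, 246, 225, 142 and 194 CPM and Hk2 at 46.5, 114, 67.9, 105.5, 75.9 and 41.6 CPM. Hk1 was therefore the higher of the pair in 6 of 6 tumors, but Hk2 was lowest in tumors 6 and 1 and highest in tumors 2 and 4, an order that Hk1 did not share. Hk2 made up 9.08% of hexokinase counts in tumor 1 (exact Clopper-Pearson 95% interval 8.07 to 10.2%), 38.5% in tumor 2 (34.9 to 42.1%), 21.6% in tumor 3 (19.4 to 23.9%), 32.0% in tumor 4 (29.6 to 34.3%), 34.9% in tumor 5 (32.0 to 37.8%) and 17.7% in tumor 6 (15.5 to 19.9%). The intervals cover counting error only, with each count taken as a separate molecule. Whether duplicate reads were collapsed is not given in the sources used here, and duplicates would make the intervals too narrow. The intervals were apart in 12 of 15 pairs of tumors, and the 3 pairs that overlapped were tumors 2 and 5, 4 and 5, and 3 and 6. Without tumor 1 they were apart in 7 of 10 pairs and the share still ran from 17.7 to 38.5%. The whole hexokinase step differed less in tumors 2 to 6, at 218 to 330.1 CPM, a 1.52-fold range against 2.73-fold for Hk2 alone and 1.74-fold for Hk1 alone. Per union exon length the median Hk2 share was 34.2% in place of 26.8% and its highest value 47.2%, and by the longest coding transcript the median was 22.2%, so Hk1 remained ahead in every tumor on both scales. The log2 ratio Hk2/Hk1 averaged -1.66 ± 0.99 (SD, n = 6, below 0 in 6 of 6 tumors), with an exact sign-flip permutation test, two-sided, giving p = 0.03125, also after Benjamini-Hochberg adjustment over 5 ratios. That is the smallest p that the 64 sign patterns of 6 tumors allow.

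Further hexokinase genes were near 0. Hk3, a hexokinase of myeloid cells, and Hkdc1 had at most 1 and 2 counts. In tumor 3, the library with the highest summed immune markers, Hk3 had 1 count.

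**Figure D2:**
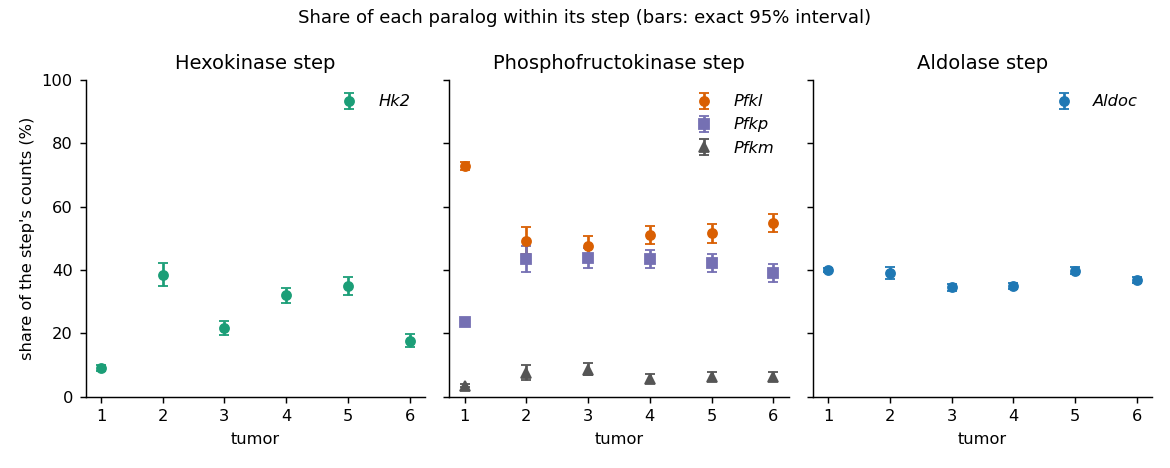
Share of Hk2 in hexokinase counts, of Pfkl, Pfkp and Pfkm in phosphofructokinase counts and of Aldoc in aldolase counts (%, y axis) in each tumor (x axis), with exact 95% intervals for counting error. The Hk2 share ran from 9.08 to 38.5%, the Aldoc share from 34.5 to 40.0%, and the phosphofructokinase shares were level in tumors 2 to 6 and differed in tumor 1.

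At the phosphofructokinase step Pfkl and Pfkp were close to each other in 5 tumors and Pfkm was minor in all 6. Pfkl had 3533, 277, 456, 640, 616 and 663 counts in tumors 1 to 6, Pfkp 1142, 244, 419, 546, 504 and 471, and Pfkm 169, 42, 82, 71, 76 and 75. The liver form Pfkl made up 72.9% of the step in tumor 1 (71.7 to 74.2%) and 49.2, 47.6, 50.9, 51.5 and 54.8% in tumors 2 to 6. Pfkp, the platelet form, made up 23.6% in tumor 1 (22.4 to 24.8%) and 43.3, 43.8, 43.4, 42.1 and 39.0% in the others. Tumor 1 thus stood apart in both, while among tumors 2 to 6 the intervals of Pfkl were apart in 1 of 10 pairs and those of Pfkp in 0 of 10. The muscle form Pfkm made up 3.49% in tumor 1 and 5.65 to 8.57% in tumors 2 to 6, with intervals apart in 0 of 10 pairs there. Tumor 3, with the highest summed muscle markers, also had the highest Pfkm share, 8.57% (6.87 to 10.5%), and the part of those markers in it was not tested. In tumors 2 to 6 the whole step lay between 224 and 267 CPM, a 1.19-fold range, and it was 822 CPM in tumor 1.

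Mean log2 ratios were -0.49 ± 0.57 for Pfkp/Pfkl, -3.08 ± 0.67 for Pfkm/Pfkl and -2.59 ± 0.20 for Pfkm/Pfkp (SD, n = 6 each). All 3 lay below 0 in 6 of 6 tumors, and each gave p = 0.03125 by the exact sign-flip permutation test, the smallest possible, unchanged by adjustment over the 5 ratios. The Pfkp/Pfkl ratio was -1.62 in tumor 1 and -0.49 to -0.12 in the other 5. Per union exon length the median shares were 60.6% for Pfkl, 24.9% for Pfkp and 14.6% for Pfkm, against 51.2, 42.7 and 6.28% by counts, and by the longest coding transcript they were 52.5, 39.3 and 8.32%. The order of the 3 medians was the same on all 3 scales. Divided by union exon length the mean log2 ratios were -1.48 for Pfkp/Pfkl, -2.12 for Pfkm/Pfkl and -0.64 for Pfkm/Pfkp, so the size of the lead of Pfkp over Pfkm depended on the length used. One feature of the annotation touches Pfkp: the last 300 bases of its longest coding transcript lie wholly within exons of Pitrm1 on the opposite strand. Pitrm1 had 80 to 171 counts and 110 in tumor 1, where Pfkp had 1142. The kit is directional per the labels, but the strand setting of the counting is not given in the sources used here.

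By counts, the aldolase split was similar in tumor 1 and in the other tumors. The Aldoc share had a range of 5.50 percentage points over 6 tumors and 5.17 without tumor 1. Aldoc made up 40.0% of aldolase counts in tumor 1 (39.3 to 40.7%), 39.1% in tumor 2 (37.2 to 41.0%), 34.5% in tumor 3 (33.4 to 35.7%), 34.95% in tumor 4 (33.9 to 36.03%), 39.7% in tumor 5 (38.6 to 40.8%) and 36.8% in tumor 6 (35.8 to 37.9%). Tumor 1 did not stand apart by counts, since its interval overlapped those of tumors 2 and 5. Both genes were at their highest in tumor 1. With the GC trend described below removed, its Aldoc share was 43.4%, above the 33.0 to 39.7% of the other tumors. Counts were deeper than at the other steps. The intervals of these count shares were apart in 9 of 15 pairs of tumors, and in 6 of 10 without tumor 1. Aldoa exceeded Aldoc in 6 of 6 tumors, with a mean log2 ratio of 0.74 ± 0.15 (SD, n = 6) and p = 0.03125 by the exact sign-flip permutation test, the smallest possible. By the longest coding transcript the median Aldoc share was 25.4% and the mean log2 ratio 1.58, and per union exon length they were 35.3% and 0.90. Of the end windows of Aldoa, 2.39% were shared with the predicted gene Gm8767, and 0% of those of the other 9 genes were shared with a gene elsewhere in the genome.

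The genes listed alone for their step moved differently from one another. Gpi1, which links hexokinase to phosphofructokinase, lay at 283, 236, 162.5, 233, 184 and 130.0 CPM in tumors 1 to 6. Tpi1, which interconverts the triose phosphates made by aldolase, lay at 114, 90.1, 145, 140.2, 202.5 and 142 CPM. Tpi1 was thus highest in tumor 5 and second lowest in tumor 1, unlike the aldolases one step above it. Pkm is spliced to the M1 or M2 form by a choice between a pair of exons of 167 bases (chr9:59675029-59675195 and chr9:59675568-59675734, GRCm38). Those exons end 644 and 830 bases from the ends of the annotated transcripts, so 3′ counts per gene do not tell the forms apart. Among known regulators of that choice, Ptbp1 lay at 258 to 702 CPM with its highest value in tumor 1, Hnrnpa2b1 at 219 to 504 CPM, Srsf3 at 170 to 282 CPM and Hnrnpa1 at 4.85 to 18.7 CPM. Pklr, the liver and red cell pyruvate kinase, had at most 1 count.

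Tumor 1 had the highest level of 8 of the 10 genes, where 38.2% of 8873 genes that averaged 10 CPM or more were highest in it. By CPM before any GC step, 0 of the 10 were lowest in it, against 27.5% of those genes. Pfkl was 4.87-fold the median of the other tumors, Pkm 2.79-fold, Hk1 2.40-fold, Aldoc 2.32-fold, Aldoa 1.98-fold, Pfkp 1.93-fold, Pfkm 1.89-fold and Gpi1 1.54-fold. Hk2 and Tpi1 were at 0.613 and 0.801 of that median. The difference was therefore uneven within a step, with Hk1 above and Hk2 below the median of the other tumors, and with a larger fold for Pfkl than for Pfkp. GC content moved with this library over all genes: the median log2 difference from the other tumors was -0.41 over the 1774 genes poorest in GC and 0.64 over the 1774 richest. After a smooth trend on GC content was removed from each library, 7 of the 10 genes were still highest in tumor 1 (background 32.9%), Pfkl at 3.23-fold, Pfkp at 2.05-fold, Aldoc at 1.89-fold, Pkm at 1.79-fold, Hk1 at 1.57-fold, Aldoa at 1.41-fold and Pfkm at 1.32-fold. All but Pfkp were thus lower than before that step. Gpi1 was at 1.23-fold and then highest in tumor 2, and Hk2 and Tpi1 were at 0.497 and 0.598. Both Hk2 (39.0 CPM) and Tpi1 (89.4 CPM) were then lowest in tumor 1, with 45.9 and 95.3 CPM as the next lowest. The share of all genes lowest in tumor 1 on that scale was not computed. The Hk2 share of tumor 1 was then 10.2%, its Pfkl share 66.4% and its Pfkp share 30.3%. Its Aldoc share was then 43.4%, the highest of the tumors. What sets this library apart was not tested beyond these values.

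**Figure D3:**
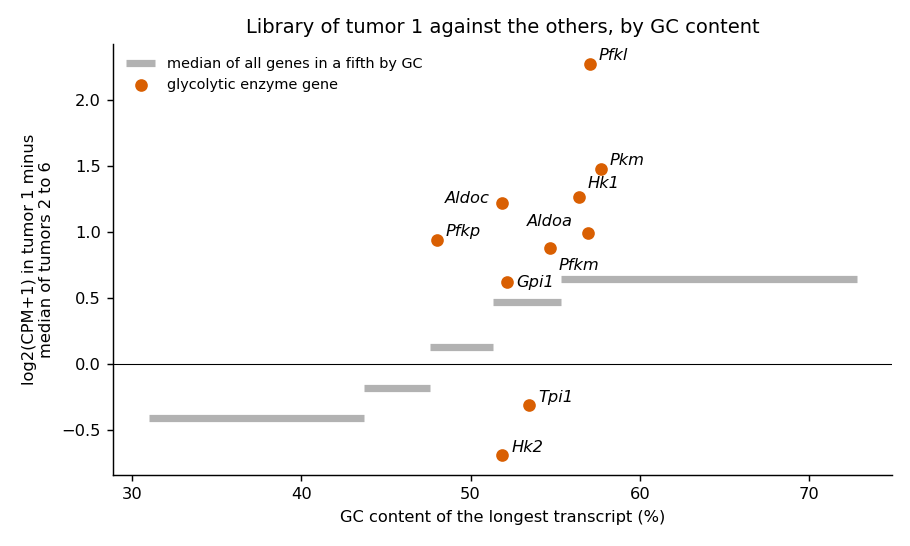
Level in tumor 1 minus the median of tumors 2 to 6, as log2(CPM + 1), against the GC content of the longest transcript (%). Grey bars give the median of all genes in each of 5 equal bins by GC content, which runs from -0.41 to 0.64, and points are the 10 enzyme genes, of which Hk2 and Tpi1 lie below 0 and Pfkl lies highest.

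The spread between tumors was read as edgeR's biological coefficient of variation. Pfkl had the largest of the 10, 0.541, which was at the 97.5th percentile of all genes fitted, and the others ran from 0.299 for Pfkm to 0.391 for Pkm, against a median of 0.323 over all genes. Without tumor 1 the order changed: Pfkl was at 0.209, Pfkp had the smallest value of 0.199, and Hk2 the largest of 0.3003, at the 79.8th percentile. The median of the 10 genes went from 0.359 to 0.227, and that of all genes to 0.251. In tumors 2 to 6, Hk2 was thus the enzyme gene with the widest spread and the 3 phosphofructokinases were among those with the narrowest, a fold range of 1.23 for Pfkl, 1.26 for Pfkp and 1.36 for Pfkm.

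Paralogs were then followed together across tumors, as log2(CPM + 1) on libraries scaled by TMM (trimmed mean of M values). Pfkp and Pfkl gave r = 0.979 over 6 tumors (exact permutation p = 0.00972, adjusted over 5 pairs 0.0243), with rho = 0.886 (exact permutation p = 0.0333, adjusted 0.146). Aldoa and Aldoc gave r = 0.963 (exact permutation p = 0.00833, adjusted 0.0243), with rho = 0.829 (exact permutation p = 0.0583, adjusted 0.146). Neither pair passed by rank, and with unscaled CPM the adjusted exact permutation p of both was 0.115. Without the 2 tumors farthest from the median level of the first gene, r was 0.922 for Pfkp and Pfkl and 0.552 for Aldoa and Aldoc, so the second relation rested on tumors 1 and 2. Without tumor 1 alone the values were 0.789 and 0.896, neither past the threshold (adjusted exact permutation p = 0.271 and 0.250, n = 5). Hk2 and Hk1 gave r = -0.51 and rho = -0.49 (exact permutation p = 0.331 and 0.356, adjusted 0.331 and 0.593), with r = -0.83 without tumors 2 and 4 but -0.10 without tumor 1, so the size of this relation rested on single tumors. Pfkm gave r = 0.891 with Pfkl and 0.850 with Pfkp (adjusted exact permutation p = 0.167 each, rho = 0.0857 and 0.200), and both turned negative without tumor 1, at -0.44 and -0.40.

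The sample identifiers in the labels carry 2 prefixes, held by 4 tumors (1, 4, 5 and 6) and 2 tumors (2 and 3), which is too few for a relation within either. The Hk2 share ran from 9.08 to 34.9% in the first set and was 21.6 and 38.5% in the second, so the sets overlapped. The Aldoc share also overlapped between them. The Pfkp share overlapped as well, at 23.6 to 43.4% in the 4 tumors and 43.3 to 43.8% in the 2. The Pfkl share was 50.9 to 72.9% and 47.6 to 49.2% in the same order, and the Pfkm share 3.49 to 6.35% and 7.46 to 8.57%. Neither of these overlapped. How often other genes or shares separate by these sets was not computed, so no difference by prefix is read from them. What the prefix stands for is not given.

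To relate the enzymes to hypoxia, a score was taken as the mean TPM of Vegfa, Slc2a1 (the glucose transporter GLUT1) and Car9, all known HIF targets. It was 48.5, 37.2, 51.4, 76.6, 94.4 and 47.3 TPM in tumors 1 to 6. Slc2a1 had the highest TPM of the 3 genes in every tumor and so weighed most. Tumor 2 was lowest in Slc2a1 alone, at 69.1 TPM against 114 TPM in tumor 1. Vegfa and Car9 were lowest in tumor 1, at 21.7 and 9.81 TPM, against 29.6 and 12.8 TPM in tumor 2. The order of these tumors by score thus depended on the gene. The log2 Hk2/Hk1 ratio was -3.30, -0.67, -1.84, -1.08, -0.89 and -2.19 in the same order, so tumors 4 and 5, with the highest scores, had high Hk2 use, but tumor 2, with the lowest score, had the highest. Over 6 tumors r was 0.304 for Hk2/Hk1, 0.196 for Pfkp/Pfkl, 0.0163 for Pfkm/Pfkl and 0.0743 for Aldoa/Aldoc, with an adjusted exact permutation p of 0.979 for each. The 4 values of rho were 0.0857, 0.0286, -0.0857 and 0.0857 (adjusted exact permutation p = 1 for each). Without tumors 4 and 5, those farthest from the median score, r was -0.73, -0.29, -0.23 and 0.528. The sign of 3 of the 4 relations therefore depended on those tumors, and none passed a threshold. For Hk2/Hk1, leaving out 1 tumor at a time gave r from 0.0375 to 0.841.

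**Figure D4:**
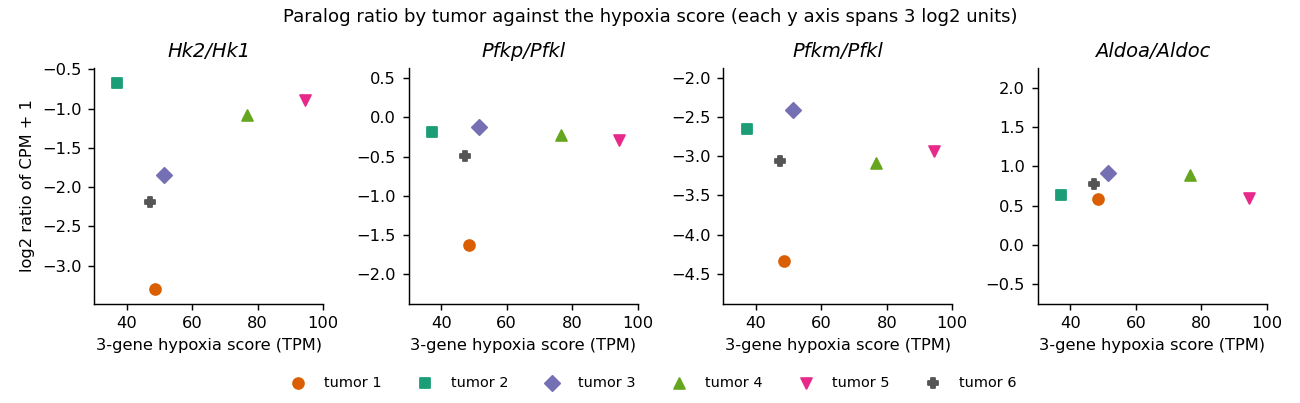
The log2 ratio of paralogs (y axis, CPM + 1, each panel spanning the same number of log2 units) against the 3-gene hypoxia score in TPM (x axis), 1 point per tumor. Tumors 4 and 5 have the highest scores, 76.6 and 94.4 TPM, while tumor 2, at 37.2 TPM, has the highest Hk2/Hk1 ratio, -0.67.

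In a fit of all genes on the same score, edgeR's quasi-likelihood test with Benjamini-Hochberg adjustment called 0 of the 10 enzyme genes, against a background of 0% of the 10413 genes tested (4.39% at an unadjusted p under 0.05). Of the 10 genes, 0 passed even unadjusted. DESeq2 called 0 of the 10 as well, with 0.173% of all genes called and 4.86% unadjusted, and edgeR without tumor 1 also called 0 of 10 (0.0185% of all genes, 8.2% unadjusted). The highest slope was that of Tpi1, 0.62 ± 0.33 log2 units per doubling of the score (SE, edgeR adjusted p = 0.944, unadjusted 0.0901), and it was 0.56 ± 0.27 without tumor 1. The lowest was that of Pfkl, -0.69 ± 0.80, which became 0.06 ± 0.26 without tumor 1. Hk2 had a slope of 0.05 ± 0.44 and Hk1 one of -0.53 ± 0.49. With all tumors 2 slopes lay above 0 and 8 below, and without tumor 1 the split was 6 and 4. The SEs of the 10 slopes ran from 0.33 to 0.80. With the identifier prefix as a term in the fit, Pfkl had a slope of -1.47 and Hk2 one of 0.68, and 0 of the 10 were called.

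**Figure D5:**
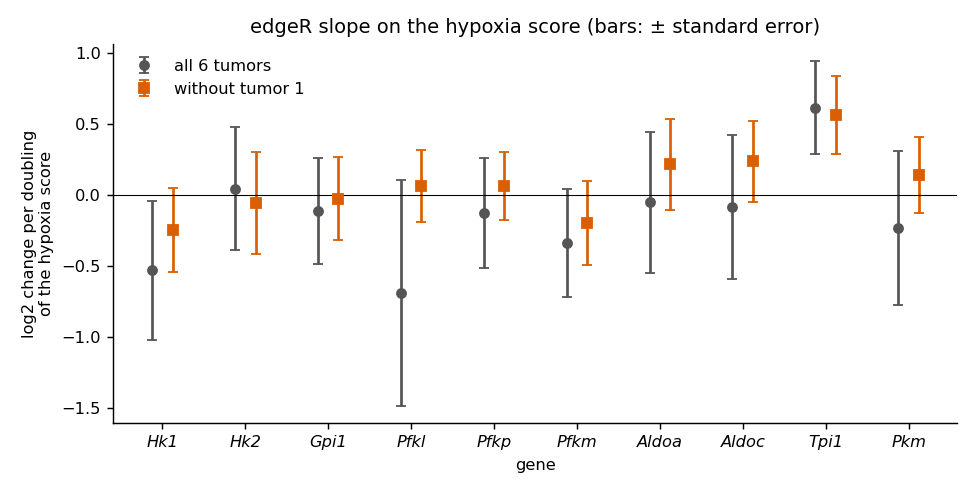
Slope of each gene on the hypoxia score in edgeR's fit (y axis, log2 units per doubling of the score, bars ± SE) with all 6 tumors (circles) and without tumor 1 (squares). Pfkl moves from -0.69 to 0.06 and Tpi1 keeps the highest slope, 0.62 and 0.56, with no gene past the adjusted threshold.

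The rest of the pathway was read from a list of 17 further glycolytic genes. Ldha, which makes lactate from pyruvate, stood at 1269, 513, 765, 643, 645 and 744 CPM in tumors 1 to 6, and Ldhb, its paralog that favours the reverse reaction, lay at 36.7 to 106 CPM. Tumor 1 was highest in both, as it was for Pkm. Of the list, 7 genes passed the filter on low counts and 0 of them were called on the score by edgeR (0 at an unadjusted p under 0.05, and 0 by DESeq2). Pgk1, a gene that most cells use, had 0 to 9 counts, and Gapdh 2.04 to 25.6 CPM. Unlike Ldha and Ldhb, Gapdh and Eno1 were lowest in tumor 1, at 2.04 and 8.14 CPM, and Pgk1 had 0 counts in tumors 1 and 2. For Gapdh, 82.9% of its end windows also occurred in 99 other annotated genes. For Eno1, at 8.14 to 122 CPM, 90.0% occurred in Eno1b, so the levels of Gapdh and Eno1 are uncertain. For Pgk1 no end window was shared with another annotated gene, and the reason for its low count was not tested. The testis or muscle forms Pgk2 and Pgam2 had 0 counts in every tumor, which allows up to 0.509 to 1.20 CPM by library. Of 7 genes that set the level of fructose-2,6-bisphosphate or reverse the phosphofructokinase step, Pfkfb3 lay at 23.8 to 45.1 CPM, Pfkfb4 lay at 0.390 to 4.19 CPM and Tigar at 2.34 to 4.92 CPM. Among these, 3 passed the filter and 0 were called by edgeR (0 unadjusted, and 0 by DESeq2), and the same counts of 0 held for the 4 regulators of Pkm splicing, all of which passed the filter.

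The genes whose pattern over the 6 tumors was most like that of 3 members were named as a description, out of 3736 genes averaging 50 CPM or more. For Hk2 they were March5 (r = 0.990), Raph1 (0.988) and Gtf2ird1 (0.984), which stayed at 0.982 to 0.987 without tumor 1. For Pfkp they were Ergic1 (0.992), Eva1b (0.989) and Plrg1 (0.988), which were at 0.893 to 0.973 without tumor 1. For Aldoa they were Mrfap1 (0.993), Ccpg1 (0.992) and Polr2m (0.990). With 6 points that share a library each, high values are common, but less so for Hk2: an r over 0.9 was reached by 0.803% of the 3736 genes with Hk2, 9.31% with Pfkp and 6.77% with Aldoa.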

How the data were processed

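The samples were sorted tumor cells from 6 treated tumors. The authors prepared 3′ libraries (QuantSeq 3′ mRNA-Seq FWD with identifiers of 6 bases), trimmed with bbduk, used STAR 2.5 with the GRCm38/mm10 build and deposited raw counts per gene from HTSeq. Collapsing by identifier, annotation release and strand setting are not given in the sources used here. Lines naming no gene (5 per file, 16.1 to 41.4% of reads) were left out.

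Ensembl identifiers were matched to GENCODE M21 (47224 of 47643). CPM, TPM over union exon length and shares were computed from the deposited counts. Ratios used log2(CPM + 1) with a pseudocount of 1 and a two-sided exact sign-flip permutation test, and relations used exact permutation over 720 orders, with Benjamini-Hochberg adjustment. Slopes on the log2 score were fitted with edgeR 4.0.16 (quasi-likelihood, TMM, filterByExpr with a minimum count of 10 and total of 15) in R 4.3.3, with DESeq2 1.42.0 as the alternative. On simulated counts (10069 genes), 88 of 100 genes with a slope of 2 and 66 of 100 with a slope of 4 passed the filter. Of each 100, edgeR recovered 59% and 66%, with 5.30% of its 132 calls false, and DESeq2 76% and 66%, with 17.0% of its 171 false. Slopes of the size fitted for the 10 genes, -0.69 to 0.62, were not simulated, so recovery at that size is not known. Other scalings, filters, lengths, a prefix term and leaving out each tumor were tried. The coding transcript length and the GC trend were chosen after seeing the data. The members and lists were chosen with earlier results of these data known. The genes named were the members, the fixed lists, the markers and the 3 genes most like Hk2, Pfkp and Aldoa by Pearson's r. Some genes of the lists are not reported here.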

Additional observations from a re-analysis of the deposited data

Results flagged for a closer look

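Of 15 measures (10 levels and 5 shares), 9 had a tumor far from the others, where the gap of the highest or lowest tumor to its neighbour, as a part of the range, was over Dixon's critical value. Chance flags about 1 in 20 groups, or about 0.75 of 15, and the measures are not independent, since all 9 gaps belong to tumor 1. Among the levels in CPM, the gap was 0.947 of the range for Pfkl, 0.832 for Pkm, 0.773 for Aldoc, 0.762 for Pfkp, 0.679 for Aldoa, 0.677 for Hk1 and 0.627 for Pfkm, with tumor 1 highest in each. Over all genes that averaged 10 CPM or more, 18.1% had such a gap in some tumor and 13.1% had it with tumor 1 highest. Among the shares, the gap was 0.716 for Pfkl, which was high in tumor 1, and 0.761 for Pfkp, which was low there. Hk2, Gpi1 and Tpi1 levels and the Hk2, Pfkm and Aldoc shares had no such gap. Tumor 1 was also the library with the lowest correlation to the others (0.788), and its part in these values was not tested.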

How the results depend on the processing

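The 100 alternative values for single levels, the 10 for the summed level and the 10 for the Hk2 share stayed within the spread between tumors. Per union exon length the median shares moved to 60.6% (Pfkl), 24.9% (Pfkp), 14.6% (Pfkm) and 35.3% (Aldoc), and by the longest coding transcript to 8.32% (Pfkm) and 25.4% (Aldoc), by construction of the scale. All 5 paralog ratios kept their sign, and leaving out 1 tumor made the threshold unreachable (smallest exact p 0.0625), with means of -1.86 to -1.34 (Hk2/Hk1), -0.56 to -0.26 (Pfkp/Pfkl), -3.22 to -2.83 (Pfkm/Pfkl), -2.65 to -2.54 (Pfkm/Pfkp) and 0.70 to 0.77 (Aldoa/Aldoc). The relations that passed missed the threshold with CPM (r = 0.967 for Pfkp and Pfkl, 0.965 for Aldoa and Aldoc), with the GC trend removed (0.966 and 0.862) and without tumor 1, 2, 3 or 6, but not without tumor 4 or 5 (0.789 to 0.997 and 0.896 to 0.975 over all 6 omissions). Leaving out 1 tumor gave -0.62 to -0.10 for Hk2 and Hk1, -0.44 to 0.959 for Pfkm and Pfkl, and -0.40 to 0.927 for Pfkm and Pfkp. Relations to the score turned sign with the GC trend removed (-0.0723 for Pfkp/Pfkl, -0.0281 for Pfkm/Pfkl) and ranged on leaving out tumors from -0.0415 to 0.450 (Pfkp/Pfkl), -0.46 to 0.263 (Pfkm/Pfkl) and -0.20 to 0.650 (Aldoa/Aldoc), none past the threshold. edgeR called 0 genes on the score with all tumors, 10 without the filter and 0 to 2 on leaving out tumors (2 without tumor 1), and DESeq2 called 18. Slopes of single enzymes changed sign in 16 of 110 alternatives, none called: on leaving out tumors they ranged from -0.99 to 0.0381 (Hk1), -0.20 to 0.95 (Hk2), -0.25 to 0.0872 (Gpi1), -1.34 to 0.0623 (Pfkl), -0.34 to 0.0761 (Pfkp), -0.56 to 0.35 (Aldoa), -0.55 to 0.24 (Aldoc) and -0.67 to 0.14 (Pkm), and Hk2 had -0.000596 with a TMM-scaled score. The median coefficient of variation of the 10 genes ranged from 0.227 (without tumor 1) to 0.386. The causes were not tested. The paralog ratios were paired within a tumor, and no pairing between treatment groups was possible because there is 1 group. The Pfkm share rests on 42 to 169 counts per tumor, fewer than any other of the 10 genes in each tumor.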
